A study of Mus musculus with 36 samples.

Results

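The 9 genes described here encode transcription factors that define the hepatocyte, the main cell of the liver. They are Hnf4a, Nr5a2, Foxa1, Foxa2, Foxa3, Cebpa, Cebpb, Onecut1 and Prox1, and they were taken by name from the 53715 gene identifiers of the count table. All 9 were found, and all 9 were among the 14068 genes with enough counts to be tested. The livers came from 36 male mice of the C57BL/6 strain, aged 10 weeks, which had eaten their diet for 6 weeks from 4 weeks of age. Of these, 12 ate AIN93G (control), a purified rodent diet. Another 12 ate AIN93G with 10% red tomato powder (red), and 12 ate AIN93G with 10% tangerine tomato powder (tangerine). Each library carries its own mouse number, which names it below. The labels give the group size as a range that starts at 11, so that 12 separate mice per diet is a reading of these numbers. Total counts per library ran from 21290169 to 33810573.

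Hepatocyte genes are controlled by a small circle of factors that bind each other's promoters as well as those of their targets. HNF4A and NR5A2 are nuclear receptors, the FOXA proteins are forkhead factors able to bind closed chromatin, C/EBPα and C/EBPβ are leucine zipper factors, ONECUT1 (also called HNF6) is a cut homeodomain factor and PROX1 a homeodomain factor. In the adult liver they keep up the genes of blood protein secretion, gluconeogenesis, the urea cycle and bile acid synthesis.

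Levels are CPM, that is counts after scaling for library size, and a log2 fold change is the difference of 2 diets on the log2 scale with its standard error (SE). Adjusted p-values come from the quasi-likelihood test of edgeR over all 14068 genes, with a threshold of 0.05. RNA was taken from whole liver, so fewer cells of a type and less RNA per cell cannot be told apart. Of 8 hepatocyte markers, 7 had counts, and their summed level was between 91300 and 130000 CPM in every liver. Hpd, the eighth, was listed at 0 throughout. A few libraries stood apart in markers of other cells. Red 186 had 159 CPM of T and NK cell markers, where the red median was 2.95 CPM, and 9.24 CPM of adipocyte markers. Tangerine 216 had 12.7 CPM of pancreatic acinar markers (tangerine median 0.0399 CPM), and tangerine 192 had 111 CPM of cholangiocyte markers (median 20.8 CPM). Control 137 and tangerine 225 had the lowest Kupffer cell and endothelial markers. For the 9 factors, results that change without these libraries are given with and without them. For the listed target genes, only omissions of single libraries are given.

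Per kilobase of exon, which allows genes to be compared, Hnf4a stood highest at 127 ± 16.3 CPM (SD, n = 36) and Cebpa next at 124 ± 20.8 CPM. Foxa3 followed at 21.8 ± 4.77 CPM. Nr5a2 (11.2 ± 2.11 CPM), Prox1 (11.0 ± 3 CPM), Foxa2 (10.8 ± 3.16 CPM) and Cebpb (9.58 ± 4.40 CPM) lay close together. Foxa1 had 5.36 ± 1.33 CPM and Onecut1 1.26 ± 1.06 CPM per kilobase. Cebpa exceeded Foxa3 in 36 of 36 livers and Foxa1 exceeded Onecut1 in 36 of 36. Hnf4a exceeded Cebpa in 19 of 36, Nr5a2 exceeded Prox1 in 16 of 36 and Prox1 exceeded Foxa2 in 20 of 36, so these neighbours were not ordered beyond their spread. Among tested genes, Hnf4a and Cebpa stood at the 97.3 and 97.2 percentiles of level per kilobase, and Onecut1 at 34.2.

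The promoters of 4 members are shown because their transcripts gave the results below: Foxa1, Foxa2 and Onecut1 rose and fell together from liver to liver, and Cebpa differed between the tomato diets. Each window runs from 250 bases before to 50 bases after a transcript start of RefSeq (GRCm38.p6), 5′ to 3′ on the gene's own strand. Capitals mark a match to a motif of these factors or of the clock.
Foxa1 (chr12:57546062-57546361, minus strand): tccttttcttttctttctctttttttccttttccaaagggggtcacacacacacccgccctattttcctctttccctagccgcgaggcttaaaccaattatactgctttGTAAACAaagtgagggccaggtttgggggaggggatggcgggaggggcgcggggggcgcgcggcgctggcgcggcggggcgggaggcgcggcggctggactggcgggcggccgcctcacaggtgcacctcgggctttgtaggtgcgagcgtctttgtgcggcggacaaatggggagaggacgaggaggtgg
Foxa2 (chr2:148046920-148047219, minus strand): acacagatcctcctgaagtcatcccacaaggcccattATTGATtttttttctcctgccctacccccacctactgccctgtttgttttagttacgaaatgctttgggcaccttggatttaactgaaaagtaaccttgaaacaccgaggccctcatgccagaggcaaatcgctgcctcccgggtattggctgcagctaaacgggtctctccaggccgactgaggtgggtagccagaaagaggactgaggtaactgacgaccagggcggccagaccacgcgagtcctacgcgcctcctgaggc
Onecut1 (chr9:74861671-74861970, plus strand): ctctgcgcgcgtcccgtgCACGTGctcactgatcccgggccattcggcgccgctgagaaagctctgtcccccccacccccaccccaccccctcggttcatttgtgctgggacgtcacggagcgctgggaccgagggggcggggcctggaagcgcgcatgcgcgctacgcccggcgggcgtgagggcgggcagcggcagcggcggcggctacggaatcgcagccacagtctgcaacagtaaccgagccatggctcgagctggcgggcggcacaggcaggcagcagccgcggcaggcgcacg
Cebpa (chr7:35119043-35119342, plus strand): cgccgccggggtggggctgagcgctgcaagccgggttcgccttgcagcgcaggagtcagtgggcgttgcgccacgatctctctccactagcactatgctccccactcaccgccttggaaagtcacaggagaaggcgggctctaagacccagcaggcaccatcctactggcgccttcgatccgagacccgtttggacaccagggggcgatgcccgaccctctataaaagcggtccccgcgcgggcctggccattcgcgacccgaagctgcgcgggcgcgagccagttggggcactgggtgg
The capitals in the Foxa1 window are GTAAACA, the reverse complement of the forkhead motif TGTTTAC, at position -141 from the start. Those in the Foxa2 window are the ONECUT motif ATTGAT at position -213, and those in the Onecut1 window are the E-box CACGTG, the letters bound by CLOCK and BMAL1, at position -232. The Cebpa window held none of the 8 motifs searched on both strands. The others were TTCNNNGAA (STAT5), TTGCNNAA (C/EBP), CAAAGTCC (HNF4), CAAGGTCA (NR5A2) and TTATGTAA (D-box). Of 32851 RefSeq windows of this length, 3.65% held TGTTTAC, 7.54% ATTGAT and 7.15% CACGTG. The 9 members had 14 such windows in all, and TTCNNNGAA, held by 8.30% of all windows, was in none of them. Among the windows not shown, the one of Hnf4a nearest its annotated start also held ATTGAT. A further window of Nr5a2 held the C/EBP motif. The rest, among them the other windows of Foxa2, held none of the 8 motifs. A match shows only that the letters occur in the window. The Foxa1 window starts its transcript 805 bases inside the gene as annotated by GENCODE, and those of Foxa2, Onecut1 and Cebpa at the gene's annotated start.

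Of the 9 factors, Cebpa alone differed between diets by the main test, being higher on tangerine than on red tomato. In red against control, 0 of 9 members passed the threshold, where 0.149% of all tested genes did, and 1 of 9 had an unadjusted p under 0.05, where 13.3% did. In tangerine against control 0 of 9 passed (0.0142% of all genes), with 0 of 9 at an unadjusted p under 0.05 (5.47% of all genes). These comparisons share the control livers. In tangerine against red, 1 of 9 passed, Cebpa, where 1.71% of all genes did, and 1 of 9 had an unadjusted p under 0.05 (15.1% of all genes). With both tomato diets together against control, 0 of 9 passed (0.00711% of all genes), and 0 of 9 had an unadjusted p under 0.05 (6.77% of all genes). In the test of any difference among diets, 0 of 9 passed (1.18%) with edgeR, 2 of 9 having an unadjusted p under 0.05 (13.9% of all genes), and 1 of 9 with DESeq2 (2.94%). DESeq2 gave 0, 0, 1 and 0 members in the directed comparisons above, where it called 1.37%, 0.0498%, 3.39% and 0.124% of all genes. Red against control gave the 9 a median log2 fold change of -0.093 (all genes -0.005), tangerine against control -0.017 (all genes -0.012) and tangerine against red 0.007 (all genes -0.005). The diets overlapped for every member, and the share of all genes for which they did was not calculated.

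**Figure D1:**
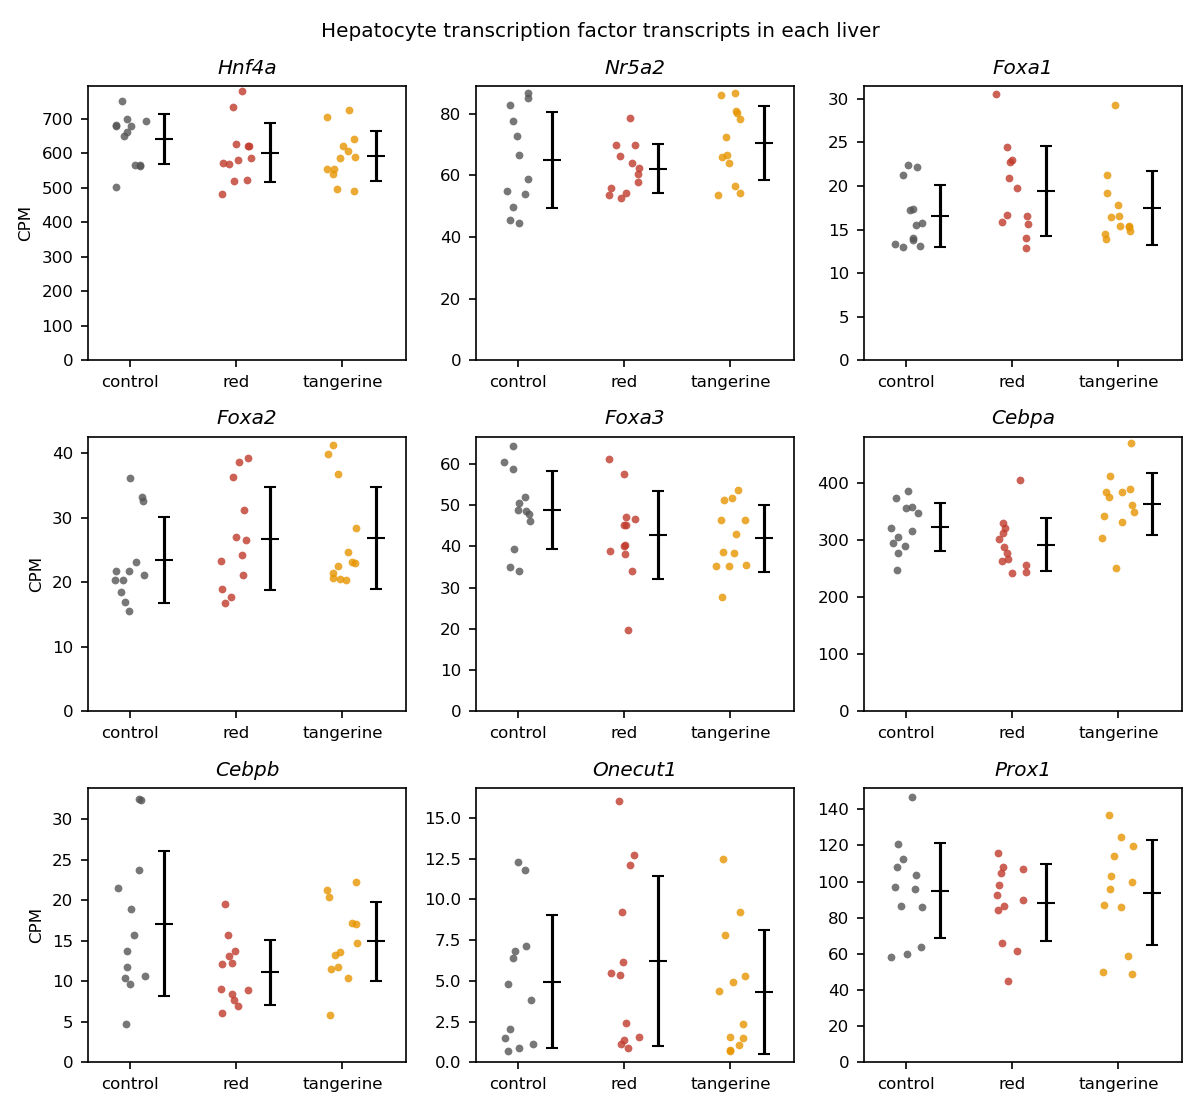
Level of each of the 9 factors in each liver (vertical axis, CPM, from 0), 12 livers per diet; each point is 1 liver, and the bar beside it is the mean ± SD. The diets overlap in every panel, the mean of Cebpa is 363 CPM in tangerine and 292 CPM in red livers, and Onecut1 spreads from 0.680 to 16.1 CPM.

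Hnf4a (ENSMUSG00000017950, chromosome 2, 163506808 to 163572910, plus strand of GRCm38) encodes the receptor that drives apolipoprotein and coagulation factor genes. Its lowest, median and highest levels were 502, 671 and 752 CPM in control livers, 483, 584 and 780 CPM in red livers and 490, 588 and 724 CPM in tangerine livers. In each tomato diet 10 of 12 livers lay below the control median. The means were 642 ± 73.8 CPM (control), 602 ± 85.7 CPM (red) and 593 ± 73.3 CPM (tangerine) (SD, n = 12 each). The log2 fold change was -0.093 (SE 0.075) for red against control and -0.11 (SE 0.075) for tangerine against control, with adjusted edgeR p of 0.622 and 0.967. The 95% interval of tangerine against control ran from -0.27 to 0.037. With edgeR none of the 19 tested genes of 20 listed HNF4A targets, such as Apoa1, Ttr and F9, passed in any directed comparison. At an unadjusted p under 0.05 there were 2, 2 and 3 of 19 in red against control, tangerine against control and tangerine against red. The shares of all genes in these comparisons were 13.3%, 5.47% and 15.1%. DESeq2 called 0 of 19 in each and limma-voom 1 of 19, lower in red against control, where it called 6.70% of all genes lower. Their median log2 fold changes were -0.023, 0.007 and 0.056 in the same order. Apoa1, the main protein of HDL and the most abundant of them, had 10300 ± 2420 CPM (control), 10200 ± 1970 CPM (red) and 10000 ± 1230 CPM (tangerine).

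Nr5a2 (ENSMUSG00000026398, chromosome 1, 136842571 to 136960448, minus strand) encodes LRH-1, a receptor of bile acid and cholesterol genes. Its lowest, median and highest levels were 44.6, 62.7 and 86.7 CPM in control livers, 52.6, 61.4 and 78.7 CPM in red livers and 53.6, 69.6 and 86.9 CPM in tangerine livers. Tangerine livers lay above the red median in 9 of 12 cases, and 4 of 12 exceeded every red liver. The log2 fold change of tangerine against red was 0.18 (SE 0.106, 95% interval -0.034 to 0.40, adjusted edgeR p 0.423). Among 9 listed NR5A2 targets, edgeR called 2 higher on tangerine than on red, where 0.732% of all genes were, and 0 lower (0.981%). They were Abcg5 and Abcg8, whose proteins form the transporter that moves sterols into bile. Abcg5 had 83.2 ± 11.6 CPM (control), 67.5 ± 7.72 CPM (red) and 86.0 ± 12.4 CPM (tangerine). Its log2 fold change of tangerine against red was 0.35 (SE 0.079, adjusted edgeR p 0.0173). Abcg8 had 125 ± 20.7, 105 ± 12.6 and 133 ± 20.6 CPM in the same order, a log2 fold change of 0.34 (SE 0.086, adjusted edgeR p 0.0300). The median log2 fold change of the 9 was -0.037, beside -0.005 for all genes. Abcb11, the bile salt export pump, pointed the other way at -0.21 (SE 0.063, adjusted edgeR p 0.0726), and Nr0b2, which encodes the repressor SHP, had -0.076 (SE 0.215, adjusted edgeR p 0.900). In tangerine against red, DESeq2 and limma-voom each called 2 of the 9 higher (1.58% and 1.91% of all genes) and 1 lower (1.81% and 2.35%). In red against control edgeR called 0 of 9, DESeq2 1 lower (0.683% of all genes) and limma-voom 2 lower (6.70%).

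The forkhead genes did not pass in any comparison. Foxa1 (ENSMUSG00000035451, chromosome 12, 57540628 to 57546916, minus strand) had lowest, median and highest levels of 13.0, 15.6 and 22.4 CPM in control livers, 12.9, 18.2 and 30.6 CPM in red livers and 13.9, 15.9 and 29.3 CPM in tangerine livers. Red 170 and tangerine 192 were the highest livers, and 10 of 12 red livers lay above the control median. Red against control was 0.23 on the log2 scale (SE 0.130, 95% interval -0.035 to 0.49, adjusted edgeR p 0.459). Foxa2 (ENSMUSG00000037025, chromosome 2, 148042877 to 148046969, minus strand) had 15.6, 21.5 and 36.1 CPM in control livers, 16.8, 25.4 and 39.2 CPM in red livers and 20.4, 23.1 and 41.2 CPM in tangerine livers. In every diet a few livers lay well above the rest, among them tangerine 160, 192 and 215. Its log2 fold change was 0.19 (SE 0.159) for red and 0.20 (SE 0.159) for tangerine against control, each with intervals across 0. Foxa3 (ENSMUSG00000040891, chromosome 7, 19013284 to 19023538, minus strand) is the form most abundant in these livers. It had 34, 48.7 and 64.3 CPM in control livers, 19.6, 42.7 and 61.1 CPM in red livers and 27.7, 40.8 and 53.6 CPM in tangerine livers. Red 186 was the lowest liver, and 10 of 12 red and 9 of 12 tangerine livers lay below the control median. The log2 fold change was -0.19 (SE 0.127, adjusted edgeR p 0.546) for red and -0.22 (SE 0.127, adjusted edgeR p 0.954) for tangerine against control. Of 7 listed FOXA targets, 0 passed in any directed comparison with edgeR, DESeq2 or limma-voom. An unadjusted edgeR p under 0.05 was reached by 0, 2 and 1 in red against control, tangerine against control and tangerine against red. The shares of all genes were 13.3%, 5.47% and 15.1%. Albumin (Alb), the most abundant of the listed FOXA targets, had 81300 ± 6800 CPM (control), 78500 ± 8360 CPM (red) and 73200 ± 6110 CPM (tangerine).

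Cebpa (ENSMUSG00000034957, chromosome 7, 35119293 to 35121928, plus strand) encodes the factor needed for urea cycle, gluconeogenesis and glycogen genes. Its lowest, median and highest levels were 247, 318 and 386 CPM in control livers, 242, 282 and 404 CPM in red livers and 251, 368 and 469 CPM in tangerine livers. Of the 12 tangerine livers, 11 lay above the red median, tangerine 195 being the exception, and 2 lay above every red liver, while red 170 lay above all but 2 tangerine livers. The means were 323 ± 42.0, 292 ± 46.0 and 363 ± 54.7 CPM on control, red and tangerine (SD, n = 12 each). Tangerine exceeded red by 0.31 on the log2 scale, or 1.24-fold (SE 0.085, 95% interval 0.14 to 0.48, adjusted edgeR p 0.0452). Against control, red stood at -0.14 (SE 0.084, adjusted p 0.475) and tangerine at 0.17 (SE 0.084, adjusted p 0.920), both by edgeR.

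The Cebpa difference lay near the threshold. Leaving out single livers moved the log2 fold change between 0.27 and 0.36 and the adjusted edgeR p between 0.0137 and 0.104, and 17 of 36 such omissions ended the call. They were those of red 133, 156, 157, 175, 186, 199, 202, 203 and 204 and of tangerine 192, 198, 215, 216, 217, 225, 226 and 242, the largest adjusted p (0.104) being without tangerine 215. Without both red 186 and tangerine 216 the log2 fold change was 0.29 (adjusted edgeR p 0.126). With the clock score described below as covariate it was 0.11 (adjusted edgeR p 0.649), and then 0 of 14068 genes passed in tangerine against red. Cebpa also moved against Kupffer cell and macrophage markers across livers (r = -0.474, permutation p 0.00395, adjusted 0.0924 over 117 relations; rho = -0.559, adjusted 0.0228). All 6 of these markers had counts and 0 of 6 passed in any comparison of diets. Their sum was between 62.5 and 199 CPM in control, 126 and 218 CPM in red and 85 and 192 CPM in tangerine livers. Their part in the Cebpa difference was not tested.

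Cebpb (ENSMUSG00000056501, chromosome 2, 167688915 to 167690418, plus strand) encodes the factor of the acute phase response and of hormone-driven gluconeogenesis. It had lowest, median and highest levels of 4.76, 14.7 and 32.4 CPM in control livers, 6.04, 10.6 and 19.6 CPM in red livers and 5.84, 14.1 and 22.3 CPM in tangerine livers. Control 122 and control 188 were the highest livers, control 245 was the lowest of all 36, and 10 of 12 red livers lay below the control median. The means were 17.1 ± 8.90, 11.1 ± 4.01 and 14.9 ± 4.89 CPM on control, red and tangerine. On the log2 scale red against control was -0.62 (SE 0.241, 95% interval -1.11 to -0.13, unadjusted p 0.0139, adjusted edgeR p 0.248). It passed in limma-voom with sample weights, at -0.68 (adjusted p 0.0496), a setting in which 1482 of 14068 genes passed. With 5 surrogate variables it was -0.31 (adjusted edgeR p 0.535). B cell markers moved against Cebpb across livers (r = -0.549, rho = -0.610, permutation p 0.00024, adjusted p 0.0281 over 117 relations). The r was -0.431, -0.753 and -0.628 within control, red and tangerine livers, and -0.521 without red 186 and red 133. Of 4 B cell markers 3 had counts and Ms4a1 was at 0. Their sum was between 0.642 and 2.56 CPM in control, 0.595 and 3.50 CPM in red and 0.943 and 2.20 CPM in tangerine livers.

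Some of the listed metabolic targets of the C/EBP factors differed between the tomato diets. All target lists used here were written with earlier results of these data known. Their counts beside the shares of all genes are therefore descriptions and do not test the lists. In red against control 1 of 9 was lower (0.0995% of all genes) and 0 were higher (0.0498%). In tangerine against red 3 of 9 were higher (0.732% of all genes) and 0 were lower (0.981%), and the median log2 fold change was 0.16 beside -0.005 for all genes. Gys2, the liver glycogen synthase, had lowest, median and highest levels of 121, 172 and 251 CPM in control livers, 106, 136 and 174 CPM in red livers and 143, 192 and 312 CPM in tangerine livers. The median tangerine liver lay above every red one, and tangerine against red was 0.59 on the log2 scale (SE 0.131, adjusted edgeR p 0.0173). Cps1, the first enzyme of the urea cycle, had 4250 ± 864 CPM (control), 3260 ± 519 CPM (red) and 4310 ± 851 CPM (tangerine), a log2 fold change of tangerine against red of 0.40 (SE 0.108, adjusted edgeR p 0.0446). Arg1, the last enzyme of that cycle, had 1380 ± 130, 1060 ± 144 and 1320 ± 191 CPM in the same order. Its red against control value was -0.38 on the log2 scale (SE 0.075, adjusted edgeR p 0.0167) and its tangerine against red value 0.31 (SE 0.075, adjusted edgeR p 0.0251). Otc, a urea cycle enzyme between them, had 0.17 (SE 0.060, adjusted edgeR p 0.137), and Fbp1, an enzyme of gluconeogenesis, 0.14 (SE 0.062, adjusted edgeR p 0.285). G6pc, which releases glucose from the liver, pointed down at -0.67 (SE 0.294, adjusted edgeR p 0.266).

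Among 14 listed acute phase targets, 0 were higher and 3 were lower on tangerine than on red (0.981% of all genes). These were Fga, Fgb and Fgg, which encode the chains of fibrinogen, the clotting protein. Fga had 4440 ± 593 CPM (control), 5260 ± 698 CPM (red) and 4160 ± 645 CPM (tangerine), a log2 fold change of tangerine against red of -0.34 (SE 0.084, adjusted edgeR p 0.0278). Fgb (4550 ± 466, 5050 ± 726 and 4090 ± 543 CPM) and Fgg (3050 ± 418, 3300 ± 479 and 2670 ± 358 CPM) had -0.30 each, with adjusted edgeR p of 0.0320 and 0.0463. The serum amyloid genes Saa1, Saa2 and Saa3, haptoglobin (Hp) and Cebpd did not pass, and the median of the list was -0.001.

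**Figure D2:**
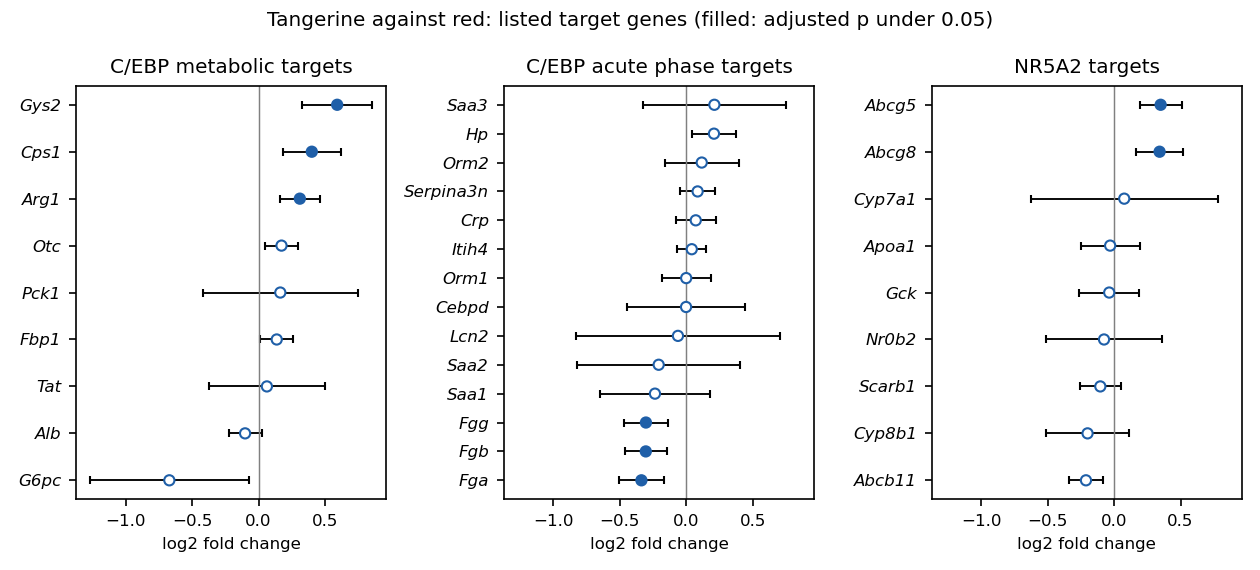
Log2 fold change of tangerine against red (horizontal axis) for each listed target of the C/EBP factors and of NR5A2; points are estimates, bars 95% confidence intervals, and filled points have an adjusted edgeR p under 0.05. Gys2, Cps1, Arg1, Abcg5 and Abcg8 lie right of 0 and the fibrinogen genes Fga, Fgb and Fgg left of it.

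The target calls differed in firmness, a check added after the values had been seen. Those of Gys2, Abcg5 and of Arg1 in red against control held in 36 of 36 omissions of a single liver. Arg1 in tangerine against red lost its call without tangerine 216 or 217, and Abcg8 without red 175 or 186 or tangerine 215, 216 or 217. Fga lost it without red 156, 199 or 202 or tangerine 215, 216 or 217. Fgb lost it in 10 of 36 omissions (red 133, 156, 157, 199 and 202, tangerine 128, 215, 216, 217 and 242). Cps1 lost it in 16 of 36 (red 133, 156, 157, 166, 175, 177, 186, 199 and 202, tangerine 128, 195, 197, 198, 215, 216 and 217). Fgg lost it in 18 of 36 (control 136, 182 and 183, red 133, 156, 157, 166, 175, 199, 202 and 203, tangerine 128, 215, 216, 217, 225, 226 and 242). The largest adjusted p in these omissions was 0.102. With the clock score as covariate all 9 of these calls were lost, with adjusted edgeR p from 0.331 to 0.773, and the log2 fold changes shrank unequally. Arg1 in red against control was then -0.238. In tangerine against red Cps1 was 0.203, Fgb -0.198, Abcg5 0.154, Fga -0.151, Arg1 0.13, Abcg8 0.104, Fgg -0.083 and Gys2 0.080. Target by target, calls in the remaining settings are not given here, so firmness is described for these 2 checks only. Over all genes, calls in tangerine against red went from 241 to 32 with the mouse number as covariate. They were 86 without red 186 and tangerine 216, and 769 with 5 surrogate variables.

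Onecut1 (ENSMUSG00000043013, chromosome 9, 74861921 to 74891781, plus strand) encodes HNF6, a factor of both hepatocytes and bile ducts, and it varied most. Its lowest, median and highest levels were 0.680, 4.32 and 12.3 CPM in control livers, 0.872, 5.41 and 16.1 CPM in red livers and 0.686, 3.37 and 12.5 CPM in tangerine livers. The highest liver, red 170, had 23.6 times the level of the lowest, control 183, and livers of about 1 CPM and of about 12 CPM occurred in every diet. The counts behind these values were 16 to 464 per library, well above 0 in each. The biological coefficient of variation of edgeR was 0.857 for Onecut1, at percentile 99.8 of all tested genes, whose median was 0.152. That of Cebpb was 0.400 (percentile 95.7), those of Prox1 and Foxa2 0.283 and 0.268, and those of Hnf4a and Cebpa 0.134 and 0.149. The log2 fold change of Onecut1 was 0.32 (SE 0.515) for red against control and -0.50 (SE 0.518) for tangerine against red. The 95% interval of the latter ran from -1.56 to 0.55. Onecut2, a relative, had 76.8 ± 20.9, 76.0 ± 24.6 and 80.0 ± 20.2 CPM on control, red and tangerine. Of the exonic bases of Onecut1, 52.8% are also exonic in Gm20649, a long noncoding RNA on the same strand that was listed at 0.0701 CPM. How the authors counted reads in shared exons is not given in the sources used here, so the level of Onecut1 is uncertain to that extent.

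Prox1 (ENSMUSG00000010175, chromosome 1, 190118035 to 190170714, minus strand) encodes a corepressor of HNF4A and NR5A2 that is also a marker of lymphatic vessels. It had lowest, median and highest levels of 58.1, 96.3 and 147 CPM in control livers, 44.8, 91.3 and 116 CPM in red livers and 49, 97.8 and 137 CPM in tangerine livers. The medians were close, and each diet had a few livers near 50 or 60 CPM. Its log2 fold changes were -0.10 (SE 0.167) for red against control, -0.017 (SE 0.167) for tangerine against control and 0.086 (SE 0.167) for tangerine against red. The antisense gene Prox1os, which shares 1.59% of the exonic bases of Prox1, was at 8.09 ± 1.60 CPM (SD, n = 36). Cebpb shares 20.7% of its exonic bases with Tmem189 on the other strand, which was at 0.571 ± 0.204 CPM, and Cebpa shares 1.93% with the antisense gene Gm45091 at 0.903 ± 0.204 CPM. Without knowledge of the strand setting, reads of such partners cannot be told apart.

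**Figure D3:**
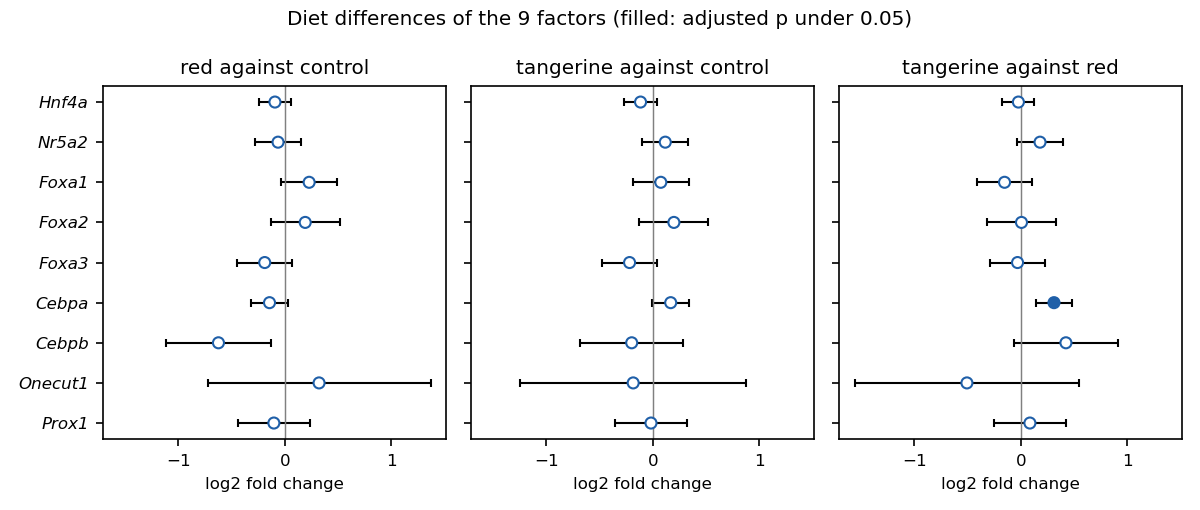
Log2 fold change of each factor (horizontal axis) in the 3 comparisons of diets; points are estimates, bars 95% confidence intervals, and the filled point has an adjusted edgeR p under 0.05. Cebpa in tangerine against red (0.31) is the single filled point, and the bars of Onecut1 are the widest.

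Relatives and other factors of the liver were looked at beside the 9. Of 15 relatives of the same families, 12 were tested and 0 passed in any directed comparison with edgeR. An unadjusted p under 0.05 was reached by 1, 2 and 5 of 12 in red against control, tangerine against control and tangerine against red. The shares of all genes were 13.3%, 5.47% and 15.1%. DESeq2 called 0 of 12, and limma-voom 2 in red against control (10.5% of all genes) and 1 in tangerine against red (4.26%). Cebpg, a partner of the other C/EBP proteins, had a log2 fold change of tangerine against red of 0.18 (SE 0.085, adjusted edgeR p 0.299). Of 29 other liver factors, 0 passed with edgeR. An unadjusted p under 0.05 was reached by 5, 1 and 7 of 29 in the same order, beside these same shares of all genes. In red against control DESeq2 called 1 (1.37% of all genes) and limma-voom 3 of 29 (10.5% of all genes). Their median log2 fold change was 0.053 in tangerine against red. Rxra, the partner of many nuclear receptors, had 431 ± 49.6, 410 ± 48.5 and 444 ± 60.9 CPM on control, red and tangerine. Srebf1, the factor of fatty acid synthesis, had 425 ± 102, 340 ± 80.1 and 434 ± 101 CPM, and its log2 fold change of tangerine against red was 0.35 (SE 0.137, adjusted edgeR p 0.197). Of 8 fetal liver genes 3 could be tested and 0 passed with edgeR or limma-voom. An unadjusted edgeR p under 0.05 was reached by 1, 1 and 0 of 3 in the same order, again beside 13.3%, 5.47% and 15.1% of all genes. Afp, the fetal counterpart of albumin, was at 0.484 ± 0.188, 0.522 ± 0.131 and 0.559 ± 0.123 CPM. Sox4, a factor of fetal and progenitor cells, had lowest, median and highest levels of 0.135, 0.463 and 0.945 CPM in control livers, 0.304, 0.568 and 4.95 CPM in red livers and 0.293, 0.562 and 0.884 CPM in tangerine livers. Red against control stood at 0.92 on the log2 scale (SE 0.365, unadjusted p 0.016, adjusted edgeR p 0.262), with red 186, at 4.95 CPM, far above the other livers.

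Some of the factors varied together from liver to liver. Correlations were taken over 36 livers after the mean of each diet was subtracted from the log2 CPM, with permutations within diets and adjustment over the 36 pairs. Of 36 pairs, 9 had an adjusted p under 0.05, 7 with a positive and 2 with a negative r, and 7 of the 9 also by rank. In these 9 pairs r had the same sign in each of the 3 diets. Relations of this size are frequent in these livers: of all 98947278 pairs of tested genes, 13.6% had an r as far from 0 as the smallest called here (0.431), 7.01% positive and 6.56% negative, beside the 9 of 36. All values of a liver come from 1 library and share its scaling, and nothing particular to these factors is read from the count.

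Foxa1, Foxa2 and Onecut1 formed 1 group. For Foxa1 and Foxa2 r was 0.760 (rho 0.707, permutation p 1e-05, the smallest that 100000 permutations can give, adjusted 0.00018), with 0.736, 0.774 and 0.768 within control, red and tangerine livers. Without red 170 and tangerine 192, the livers farthest from the median of Foxa1, it was 0.715. For Foxa2 and Onecut1 r was 0.716 (rho 0.692, permutation p 1e-05, adjusted 0.00018), with 0.708, 0.889 and 0.525 within the diets and 0.676 without tangerine 160 and tangerine 192. For Foxa1 and Onecut1 r was 0.645 (rho 0.603, permutation p 5e-05, adjusted 0.00045), with 0.610, 0.779 and 0.517 within the diets and 0.576 without red 170 and tangerine 192. In values, the lowest Onecut1 livers, control 183, tangerine 225 and tangerine 198, had 16.9, 24.7 and 23.05 CPM of Foxa2, whereas the highest, red 170, red 166 and tangerine 192, had 38.6, 36.3 and 39.9 CPM. Foxa3 had no called relation to Foxa2 or Onecut1, with r of 0.094 to Foxa2 (adjusted p 0.710) and 0.211 to Onecut1 (adjusted p 0.450). Without red 186 and tangerine 160, the livers farthest from the median of Foxa3, its r to Onecut1 was 0.405. With the clock score described below removed, that r was 0.348 (adjusted permutation p 0.134), and the relation passed by rank (rho 0.451, adjusted 0.0322). Markers of cholangiocytes, the bile duct cells, had r of 0.024, 0.131 and 0.120 to Foxa1, Foxa2 and Onecut1 over all livers (permutation p 0.889, 0.465 and 0.511), but these hide opposite signs in the tomato diets. Within red livers r was -0.719, -0.435 and -0.546, within tangerine livers 0.721, 0.580 and 0.504 and within control livers -0.143, 0.131 and 0.373. Without tangerine 192 and red 199, the livers farthest from the median of these markers, the r over all livers were -0.282, -0.014 and 0.016. Tangerine 192 had the most of these markers among tangerine livers, and also the most Foxa1 (29.3 CPM) and Onecut1 (12.5 CPM). Red 199 had the most of these markers among red livers and the least Foxa1 (12.9 CPM). The r within each diet without these 2 livers was not calculated, and the difference between the diets was not tested. All 6 of these markers had counts, and their sum was between 13.5 and 30.3 CPM in control, 11.6 and 49.5 CPM in red and 11.7 and 111 CPM in tangerine livers. The r of the 3 pairs ranged from 0.611 to 0.738 without tangerine 192 and from 0.682 to 0.775 without red 186 and tangerine 216.

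Prox1 ran against Onecut1 and Foxa2 of this group, while its r to Foxa1 was not called (-0.224, permutation p 0.197, adjusted 0.405). Its r to Onecut1 was -0.506 (rho -0.501, permutation p 0.00253, adjusted 0.0182), with -0.191, -0.581 and -0.717 within control, red and tangerine livers and -0.498 without control 183 and tangerine 225. Its r to Foxa2 was -0.431 (rho -0.472, permutation p 0.0105, adjusted 0.0453), and -0.315 without tangerine 160 and tangerine 192. The Foxa2 relation lost its call without tangerine 192 (-0.390), without red 186 and tangerine 216 (-0.422), without control 137 and tangerine 225 (-0.434) and with the clock score removed (-0.416).

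Hnf4a and Foxa3 formed a second pair, with r of 0.705 (rho 0.670, permutation p 3e-05, adjusted 0.00036), 0.558, 0.785 and 0.738 within the diets and 0.667 without red 177 and control 245. Without red 186, the lowest liver of both genes, and tangerine 216, r was 0.681. Nr5a2 and Cebpb had r of 0.522 (rho 0.495, permutation p 0.00335, adjusted 0.0201), with 0.487, 0.419 and 0.675 within the diets and 0.436 without control 208 and control 245. The remaining calls were weaker. Foxa1 and Foxa3 had r of 0.463 (rho 0.425, permutation p 0.00717, adjusted 0.0369, by rank 0.0524), and 0.355 without red 170 and tangerine 192. Foxa2 and Cebpa had r of 0.432 (rho 0.399, permutation p 0.0113, adjusted 0.0453, by rank 0.0708), with 0.072, 0.763 and 0.395 within control, red and tangerine livers and 0.476 without tangerine 160 and tangerine 192. Both lost their call without tangerine 192, and the first also without red 186 and tangerine 216. Hnf4a, the most abundant factor, had no called relation to the other 7 members.

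**Figure D4:**
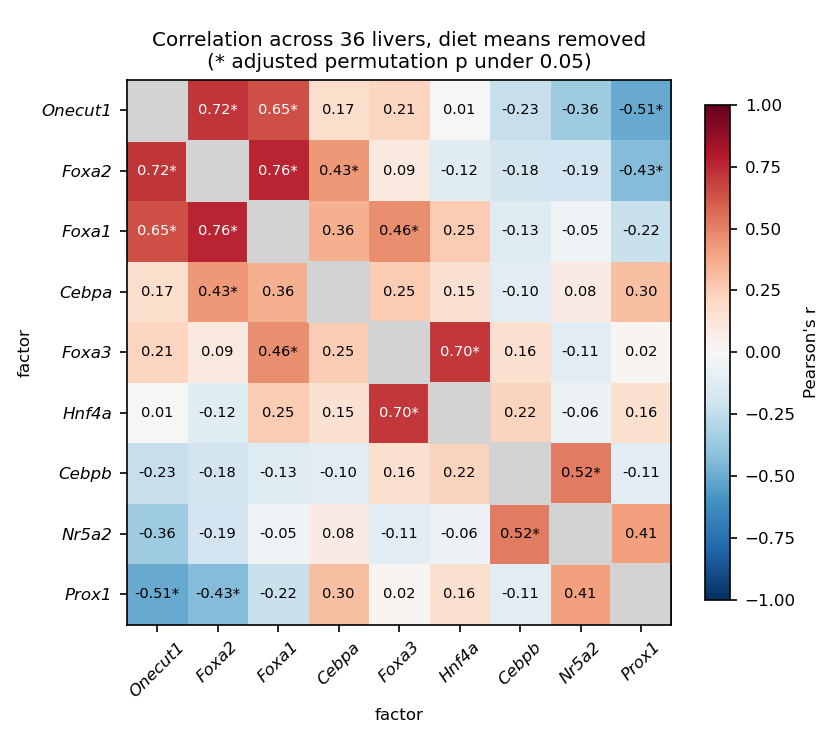
Pearson's r of each pair of factors over 36 livers with diet means removed; color gives r from -1 to 1, the number in each cell is r, and a star marks an adjusted permutation p under 0.05. Foxa1, Foxa2 and Onecut1 form a block of 0.645 to 0.760 in the upper left, Prox1 is negative to Onecut1 and Foxa2, and Hnf4a pairs with Foxa3.

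**Figure D5:**
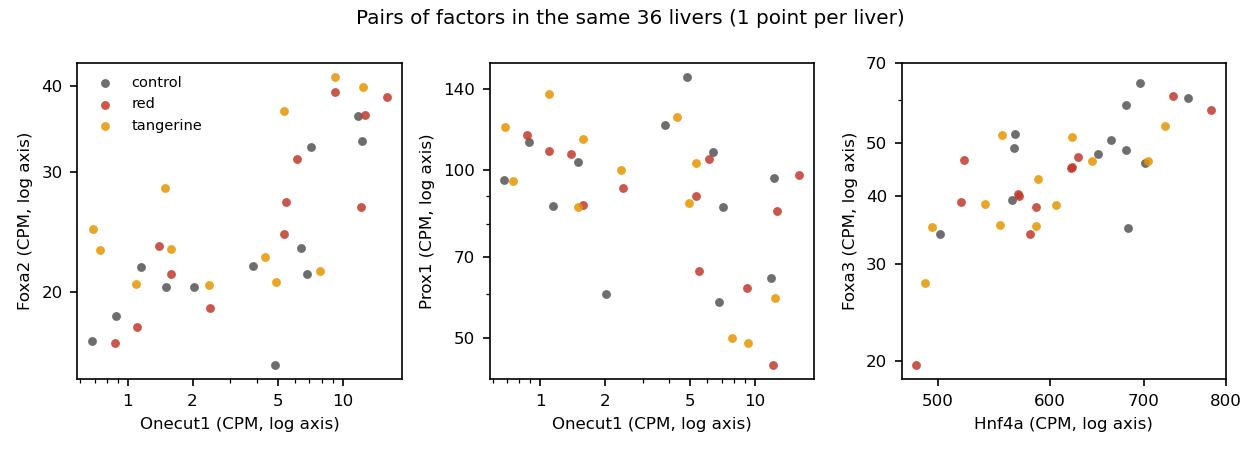
Foxa2 and Prox1 against Onecut1, and Foxa3 against Hnf4a (CPM, log axes); each point is 1 liver, colored by diet, as measured and without removal of diet means. Foxa2 rises with Onecut1 in the first panel, Prox1 falls in the second, and the diets are mixed along each trend.

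The clock score of a liver, read from 10 tested clock genes as their first principal component (84.1% of their variance, high where Dbp is high), was 0.814 ± 2.67 on control, -2.38 ± 2.17 on red and 1.57 ± 1.95 on tangerine (SD, n = 12 each). Of these 10 genes, 2 were higher (0.732% of all genes) and 4 lower (0.981%) on tangerine than on red. Nr1d2, a repressor of the clock, had 81.0 ± 23.3, 56.7 ± 17.1 and 95.6 ± 28.3 CPM on control, red and tangerine, and a log2 fold change of tangerine against red of 0.76 (SE 0.167, adjusted edgeR p 0.0173). Dbp, a clock output factor, had 1.84 (SE 0.458, adjusted edgeR p 0.0289). Npas2 and Arntl, whose proteins drive the clock, had -2.51 (SE 0.585, adjusted edgeR p 0.0224) and -1.46 (SE 0.396, adjusted edgeR p 0.0464). Nr1d1, a relative of Nr1d2, had 0.41 (SE 0.175, adjusted edgeR p 0.252). Within diets the score went with 3 of 9 members by Pearson's r, of 0.524 or more, and 4.46% of the 14058 other tested genes were as far from 0 (2.29% positive). By rank 4 of 9 passed, the smallest rho being 0.420, where 11.3% of these genes were as far from 0. Its r was 0.592 to Hnf4a (rho 0.657, permutation p 0.00018, adjusted 0.00162 over 9), 0.524 to Foxa3 (rho 0.592, permutation p 0.0009, adjusted 0.00291) and 0.528 to Cebpa (rho 0.468, permutation p 0.00097, adjusted 0.00291). Without red 202 and control 188, the livers farthest from its median, these were 0.709, 0.600 and 0.427. Within control, red and tangerine livers r was 0.497, 0.733 and 0.571 for Hnf4a, 0.464, 0.625 and 0.506 for Foxa3, and 0.545, 0.373 and 0.705 for Cebpa. Prox1 passed by rank alone (rho 0.420, adjusted 0.0301; r = 0.376, adjusted 0.0589), with r of 0.508, -0.175 and 0.744 within the diets. Onecut1 (r = -0.156), Foxa2 (r = -0.130) and Foxa1 (r = 0.197) had no called relation to it. With the score removed, Foxa1 and Foxa2 had r of 0.808, Foxa1 and Onecut1 0.698, Foxa2 and Onecut1 0.711, and Hnf4a and Foxa3 0.575. Foxa2 and Cebpa, at 0.432 before, then had 0.594 (adjusted permutation p 0.00243, by rank 0.00461). Nr5a2 and Prox1, not called before (0.410), had 0.425 (adjusted permutation p 0.0333, by rank 0.0322). The mean score was higher on tangerine than on red, as was that of Cebpa. With the score in the model the Cebpa difference was the 0.11 given above. Because the score itself differed between these diets, its part and that of diet cannot be told apart here. This holds for Cebpa and for the listed targets alike, and the cause was not tested.

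For each member, the genes most like it over the 36 livers were read off from 10960 other genes of sufficient level, by the largest r of diet-centred log2 CPM. As the largest of so many, these r are descriptions. Cish, which encodes a cytokine-inducible inhibitor of cytokine receptor signaling, came first for Foxa2 (r = 0.875), Onecut1 (0.819) and Foxa1 (0.736). Cish ran from 0.451 to 14.2 CPM over the livers and did not pass in the test of any difference among diets (adjusted edgeR p 0.706). Rgs3, a regulator of G protein signaling, was among the first 3 for Foxa2 (0.845) and Onecut1 (0.783), followed or joined by Gm5763 for Foxa2 (0.866), B4galt1, a galactosyltransferase, for Onecut1 (0.800), and Rnd3 (0.730) and the liver homeobox gene Hhex (0.719) for Foxa1. Nr5a2 was most like Fign (0.915), the nuclear receptor gene Rora (0.884) and Mcc (0.871). Cebpb was most like Sdc4, a heparan sulfate proteoglycan (0.841), the kinase gene Pim3 (0.804) and Sds, serine dehydratase (0.794). Hnf4a was most like Tbc1d8 (0.866), Arhgef26 (0.799) and Zfp972 (0.795), and Foxa3 like Camsap1 (0.722), Alas1, the first enzyme of heme synthesis (0.707), and Mcm10 (0.704). Cebpa was most like the nuclear receptor gene Esrra (0.704), Dbr1 (0.691) and the vitamin transporter gene Slc5a6 (0.684). Prox1 was most like Snx18 (0.802), Cyp2d36-ps (0.762) and Napb (0.761). None of these genes passed in a comparison of diets.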

How the data were processed

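Per the labels' protocols, RNA of preserved liver was made into directional RNA-seq libraries. FastQC, Trimmomatic, edgeR and the genome build GRCm38.p6 are named in the submitters' processing notes. The aligner, the counting program, the annotation release and the strand setting are not given in the sources used here. The authors deposited 1 table of raw counts per gene identifier, without normalization, whose 36 columns were matched to the samples by name. Symbols and positions came from GENCODE M21 (GRCm38) for 53620 of 53715 identifiers. The others held 0.00177% of all counts. Promoter windows came from RefSeq on GRCm38.p6, matched by symbol for 9 of 9 members.

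Genes were filtered with filterByExpr (count of 10, total of 15, share of 0.7), which kept 14068. The test was the robust quasi-likelihood F test of edgeR 4.0.16 (R 4.3.3) with TMM scaling over all 36 libraries, without covariates, adjusted by Benjamini-Hochberg within each comparison. Log2 CPM used a prior count of 2. Correlations used scipy 1.17.1 with two-sided permutations within diets (100000). The share of all tested genes, or of all pairs of them, with a correlation as large as the smallest called is given beside each count. No 2 libraries agreed within sampling noise (smallest chi-square per degree of freedom 13.7 among 198 pairs of one diet and 14 among 432 pairs of different diets). The labels do not say whether samples were pooled or repeated. The p-values treat each library as a separate mouse, which is a reading of the mouse numbers. The test was tried on simulated data.

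Members and gene lists were chosen with earlier results of these data known. Named genes were every member, the 3 genes most like each, genes overlapping a member, and for each list those past the threshold (at most the 4 with the smallest p) and the 2 most abundant. Other list genes named (F9, Abcb11, Nr0b2, Otc, Fbp1, G6pc, Saa1, Saa2, Saa3, Hp and Cebpd) were chosen after their values were seen, to show members that did not pass. Alternatives were DESeq2 size factors, upper-quartile scaling, no filter, a stricter filter (mean log2 CPM of 1 or more), DESeq2 1.42.0, limma-voom 3.58.1 with sample weights, the clock score, mouse number or 5 surrogate variables (sva 3.50.0) as covariates, only the groups compared, leaving out red 186 and tangerine 216, and leaving out each library. Leaving out control 137 and tangerine 225, leaving out tangerine 192, leaving out red 186 and tangerine 216 from the correlations, and repeating all settings for the listed targets were chosen after seeing the data.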

Additional observations from a re-analysis of the deposited data

Results flagged for a closer look

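Cebpa is the member whose level differed between the tomato diets in a test of that difference itself. Its log2 fold change of tangerine against red was 0.31 (1.24-fold, edgeR adjusted p 0.0452), with 11 of 12 tangerine livers above the red median. Over the alternatives other than omission of single livers, the log2 fold change stayed between 0.11 and 0.35 and the adjusted p between 0.0104 and 0.649. No rule for outlying samples within a group of 12 livers was applied to the members, but 17 of 36 omissions of a single liver ended this call.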

How the results depend on the processing

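No paired analysis was possible because no mouse number occurs in more than 1 diet. The count of members past the threshold in tangerine against red (1) went to 0 without the low count filter, with the mouse number or the clock score as covariate, without red 186 and tangerine 216 and without tangerine 192, and ranged from 0 to 1 over omissions of single livers. That in red against control (0) was 1 with limma-voom, where 10.5% of all genes passed. That for any difference (0) was 1 with 5 surrogate variables (920 of 14068 genes), limma-voom (7.9%) and DESeq2 (2.94%), and 0 to 1 over single omissions. Cebpa in tangerine against red was 0.32 (adjusted p 0.0578), 0.30 (0.108), 0.11 (0.649), 0.29 (0.126) and 0.31 (0.0556) in the settings that ended its call. Signs turned only where log2 fold changes were small and not past the threshold. With the clock score as covariate, red against control was 0.051 for Hnf4a, 0.033 for Foxa3, 0.014 for Cebpa and 0.16 for Prox1, and tangerine against red was -0.24 for Prox1. With surrogate variables, Nr5a2 in red against control was 0.077, Prox1 in tangerine against control 0.002 and Hnf4a in tangerine against red 0.006. Limma-voom gave 0.045 for Onecut1 in tangerine against control, and the mouse number -0.035 for Prox1 in tangerine against red. Without tangerine 192, tangerine against control was -0.016 for Foxa1 and 0.031 for Prox1, and tangerine against red was -0.058 for Foxa2. Over single omissions, tangerine against control ranged from -0.016 to 0.12 for Foxa1, -0.45 to 0.024 for Onecut1 and -0.079 to 0.056 for Prox1. Tangerine against red ranged from -0.051 to 0.018 for Hnf4a, -0.064 to 0.069 for Foxa2 and -0.099 to 0.028 for Foxa3. The causes were not tested. Called pairs numbered 6 to 9 in all settings against 9. Members called with the clock score, 3 over all livers, were 0 within control, 0 within red and 2 within tangerine livers, where only 12 livers entered. With the longest transcript as length, 7 of 9 members kept their rank, Prox1 and Foxa2 trading places. Every member had at least 16 counts in every library, the fewest being those of Onecut1. Where a member did not pass, a diet difference within its interval given above was not excluded. The smallest difference that could be detected was not calculated.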

Other observations

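Some transcripts that a mouse liver is known for were at or near 0 in the count table. Trf, which encodes the plasma iron carrier transferrin and is a listed HNF4A target, had at most 3 counts in any of the 36 libraries. Hpd, an enzyme of tyrosine breakdown, Lrat, the vitamin A storage enzyme of stellate cells, and the clock gene Per3 were listed at 0 in every library, as were Igf2, Dlk1, Ms4a1 and Alas2. These genes took no part in the comparisons above, and the cause was not tested.

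Neutrophil markers, at most 2.25 CPM in any liver, ran against Hnf4a (r = -0.478, rho = -0.550, permutation p 0.00333, adjusted 0.0924, by rank 0.0228 over 117 relations). The r was -0.479, -0.686 and -0.390 within control, red and tangerine livers, and -0.475 without tangerine 192 and red 177. The same markers had r of -0.360 to Cebpb (rho = -0.528, permutation p 0.021, adjusted 0.301, by rank 0.0228), with -0.127, -0.819 and -0.350 within the diets and -0.382 without tangerine 192 and red 177. Erythroid markers ran against Nr5a2 (r = -0.486, rho = -0.482, permutation p 0.00251, adjusted 0.0924, by rank 0.0957), with -0.562, -0.416 and -0.528 within the diets and -0.516 without red 170 and red 204. B cell markers also ran against Hnf4a (r = -0.507, rho = -0.430, permutation p 0.00248, adjusted 0.0924, by rank 0.159), with -0.600, -0.586 and -0.302 within the diets. Without red 186 and red 133 that r was -0.408. Their r was -0.375 to Nr5a2 and 0.420 to Foxa2 (adjusted permutation p 0.215 and 0.283). None of the relations in this paragraph passed after adjustment of Pearson's r.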
